A study of Mus musculus with 8 samples.

Results

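This account describes wild-type mouse bone-marrow-derived macrophages (BMDM) at rest, and how far 4 separately grown cultures of them differed. It rests on the 4 wild-type (WT) libraries of a series of 8, whose other libraries were not used here. Counts were scaled to counts per 1000000 (CPM) within each library, and the most abundant genes were taken from their mean. The variable genes were the 200 with the largest standard deviation (SD) of log2(CPM + 1) over the 4 cultures, out of 8385 genes averaging at least 10 CPM, themselves out of 56980 genes in the table. That choice takes 2.39% of the genes that reached this level. Because the spread itself selected them, it is given below as a description with no test.

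The series asked what constitutive loss of Grn does to macrophages, and its 4 WT cultures are one arm of it. All 4 came from C57/Bl6 mice with the label wildtype, received the vehicle DMSO and carried no other allele or agent named in the labels. Marrow from several animals was pooled for each replicate, so a difference between replicates is one between pools and cultures, not between single mice; age and sex were not used here. Cells were differentiated for 7 days with the growth factor M-CSF at 50 ng/ml, frozen, thawed and kept for 3 days with M-CSF before RNA was taken. Nothing in the labels gives a culture date, a thaw date or a sequencing batch for single replicates.

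M-CSF acts through the receptor encoded by Csf1r and drives marrow progenitors to divide, mature and survive as macrophages; maturing cells leave the cell cycle while they fill with lysosomes. Macrophages at rest keep a low level of type I interferon signalling, in which secreted interferon beta acts on the same and neighbouring cells and the factor complex ISGF3 then binds a short element in the promoters of antiviral genes. They also sense cellular sterols through the nuclear receptors LXR, which turn on genes for cholesterol efflux and lipoproteins such as Abca1 and Apoe.

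Library totals were 8768852, 8012687, 7774336 and 7413287 estimated counts in replicates 1, 2, 3 and 4, and values by replicate below follow this order. RNA integrity numbers were 9.9 or 10. Between 22253 and 23531 genes had a count in a library. Across the 8385 genes, log2 levels correlated between libraries with Pearson r from 0.921 (replicates 1 and 4) to 0.981 (replicates 3 and 4), a description across genes, which are not independent replicates. The number of genes at least 2-fold apart in CPM + 1 ran from 92 between replicates 3 and 4 to 851 between replicates 1 and 4. These were 1.1% and 10.1% of the genes at this level. The first principal component held 62.0% of the variance and placed replicate 1 at 29.3 and replicate 4 at -28.5; the second held 30.9% and placed replicate 2 at -24.8 against 3.33 to 13.5 in the other libraries. The common biological coefficient of variation, the spread beyond counting that edgeR estimated over 11323 genes, was 23.1%.

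Macrophage genes were at high levels in every library. Of 34 macrophage genes listed, 30 had a mean of 10 CPM or more, and their summed level ran from 18010 to 23828 CPM. Csf1r, the M-CSF receptor, stood at 505, 813, 785 and 1006 CPM, and Adgre1, which encodes the F4/80 antigen, at 609, 748, 753 and 859 CPM. Timd4 and Marco, receptors of some resident tissue macrophages, stayed under 1 CPM in every library. Of 23 genes of neutrophils and their precursors, 9 stayed under 1 CPM in every library and the sum was 189, 122, 99.8 and 65.0 CPM, most of it S100a8 and S100a9. Of 20 lymphoid genes, 16 stayed under 1 CPM, Trac and Gzma had no count, and the sum was 13.8 to 69.6 CPM. Of 20 stromal and endothelial genes, 17 stayed under 1 CPM and the sum was 19.3 to 44.1 CPM, largely Kdr. Of 19 dendritic cell genes, 8 stayed under 1 CPM, among them Flt3, Xcr1 and Clec9a, and the sum was 1385 to 2224 CPM, most of it Cst3 and Tcf4. The 5 that reached 10 CPM included Bst2 and Clec10a, which were among the 200. Of the 5, 4 were lowest in replicate 1, against 27.1% of all genes. Of 16 osteoclast genes, 7 had a mean of 10 CPM or more and 3 stayed under 1 CPM in every library. The 16 summed to 496 to 575 CPM, and Ctsk, the collagen-degrading protease of osteoclasts, had a mean of 2.38 CPM. Mast cell and erythroid genes summed to 52.5 to 128 and 387 to 545 CPM, but almost all of this was Il6ra and Pf4, and the haemoglobin genes Hba-a1 and Hba-a2 had no count. In bulk samples such as these, fewer cells of a type and less RNA per cell cannot be told apart.

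The 25 most abundant genes included genes of iron storage, the lysosome, the cytoskeleton and protein synthesis, beside ribosomal RNA. Ribosomal protein genes together took 6.65, 7.34, 6.89 and 6.93% of the counts. Levels here are CPM of tags counted at the 3′ ends of transcripts, not divided by length. Among protein-coding genes, Fth1, the ferritin heavy chain that stores iron, had the highest mean at 9543 ± 1699.5 CPM (SD, n = 4). Psap, the precursor of the saposins that help lysosomal enzymes degrade sphingolipids, followed at 8807 ± 2434 CPM, and Tmsb4x, which sequesters actin monomers, at 7832 ± 1323 CPM. Counts on ferritin and ribosomal protein genes are uncertain, since many processed copies resemble them closely. Ribosomal RNA still took a visible share: Rn18s-rs5 had a mean of 20823 ± 6688 CPM, and the mitochondrial ribosomal RNAs mt-Rnr2 and mt-Rnr1 had 7153 ± 2933 and 4155 ± 1379 CPM. The 3 genes made 3.24, 1.83, 3.29 and 4.49% of the counts in the 4 libraries.

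Secreted and lysosomal proteins were also among the leading 25 genes. Lyz2, the lysozyme of myeloid cells, had 5072 ± 1252 CPM, and Lpl, the lipase that releases fatty acids from lipoproteins, had 4639.9 ± 859 CPM. The cathepsins Ctsb, Ctsd and Ctss, proteases of the lysosome, had 3077 ± 702, 2839 ± 404 and 2715 ± 92.4 CPM. Of these proteases Ctss varied least, with an SD of 0.05 on the log2 scale against 0.36 for Ctsb. Spp1, the secreted phosphoprotein osteopontin, stood at 5502, 2435, 2494 and 2366 CPM: replicate 1 was more than 2-fold above the other 3 libraries, which lay close together. B2m, the light chain of MHC class I, stood at 2781, 2881, 2799 and 2776 CPM and was nearly level. None of the 25 most abundant genes was among the 200 variable ones, and their median SD was 0.23 on the log2 scale, the same value to 2 decimals as the median of all 8385 genes. Grn itself, the gene deleted elsewhere in the series, was at 1496, 1550.3, 1737 and 2008 CPM in these cultures with an SD of 0.19 on the log2 scale.

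**Figure D1:**
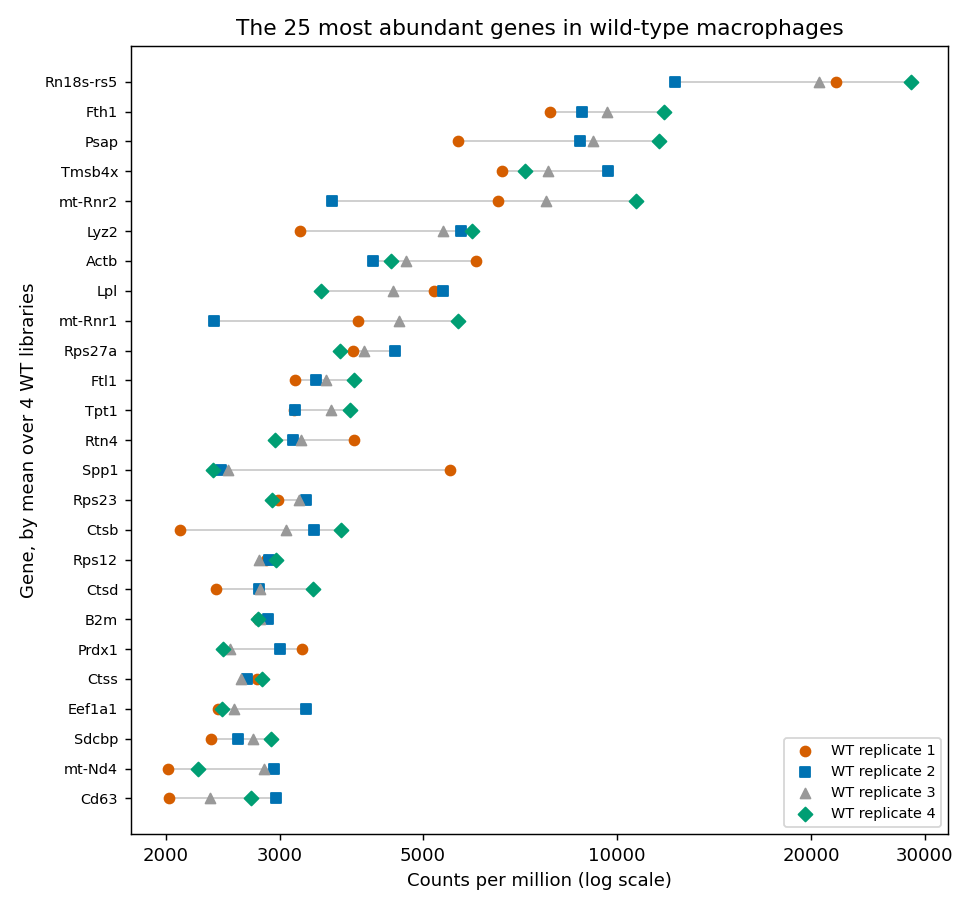
CPM (log axis) of the 25 genes with the highest mean over the 4 wild-type libraries, 1 point per library; grey lines join the lowest and highest library of a gene. Rn18s-rs5 leads with a mean of 20823 CPM, and for Spp1 replicate 1 stands at 5502 CPM, away from the other 3 libraries.

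Most genes differed little between cultures. The SD of log2(CPM + 1) had a median of 0.23 over the 8385 genes, with quartiles of 0.15 and 0.35 and a 95th percentile of 0.63. In the median gene the highest library was 1.43 times the lowest, as a ratio of CPM + 1. Counting error alone would give a median SD of 0.08. In 26.0% of the genes the observed SD was under 2 times the counting SD, which is a description and no test of spread beyond counting. Spread changed little with level: the median SD was 0.26 for genes at 10 to 20 CPM and 0.21 for those at 100 to 1000 CPM.

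The steadiest genes averaging at least 100 CPM were of mixed function. Plekha2, a membrane-binding adaptor protein, stood at 103, 103, 104 and 102 CPM, an SD of 0.01 on the log2 scale. Sec11c, a subunit of the signal peptidase, followed at 459, 448, 455 and 454 CPM. Fcer1g, the signalling chain shared by activating Fc receptors, was at 833, 829, 862 and 851 CPM, and Clec4d, a C-type lectin receptor that signals through it, was at 283, 284, 273 and 285 CPM. B2m and the translation factor subunit Eif3h were also among the 10 steadiest.

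The 200 variable genes had SDs from 0.77 to 2.47 on the log2 scale, with a median of 0.90. As a ratio of CPM + 1, their highest library exceeded their lowest by a median of 4.18 times, with a range of 3.12 to 37.1. Their means ran from 10.1 to 2482 CPM with a median of 31.6, against a median of 44.1 CPM over all genes. Of the 200, 62 lay under 20 CPM, 31 at 100 CPM or more and 4 at 1000 CPM or more. Of all 8385 genes, 1832, 2079 and 119 lay in these classes. The smallest ratio of SD to counting SD among them was 5.05 and the median 9.44, given as a description because the SD chose them. The last genes inside the limit were Lig1, Dtymk, 4930579G24Rik, Pkmyt1 and Gm44503, with SDs of 0.7760 to 0.7742. The first outside were Rbl1, Gm20667, Trip13, Etl4 and Trf, with SDs of 0.7726 to 0.7685. The limit therefore cuts through a continuous range. Of 194 variable genes with an entry in GENCODE M21, 179 were protein coding and 10 were pseudogenes, against 7971 and 267 of the 8344 genes with an entry at this level. In that annotation 28 of them (14.4%) overlapped another gene of 10 CPM or more, close to the 14.8% of all such genes. For 1 pair, Selenop and Ccdc152 on opposite strands, both partners were variable. Of the other genes given by value below, Ccnd1, Ccne2, Irf7, Gpr34, Dbp, Chmp1a, Rrp7a, Pltp and 2900060B14Rik overlap a gene on the opposite strand. Their counts are uncertain if counting ignored strand. Metrn and Gm15725 overlap a gene on the same strand, so their counts are uncertain too.

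**Figure D2:**
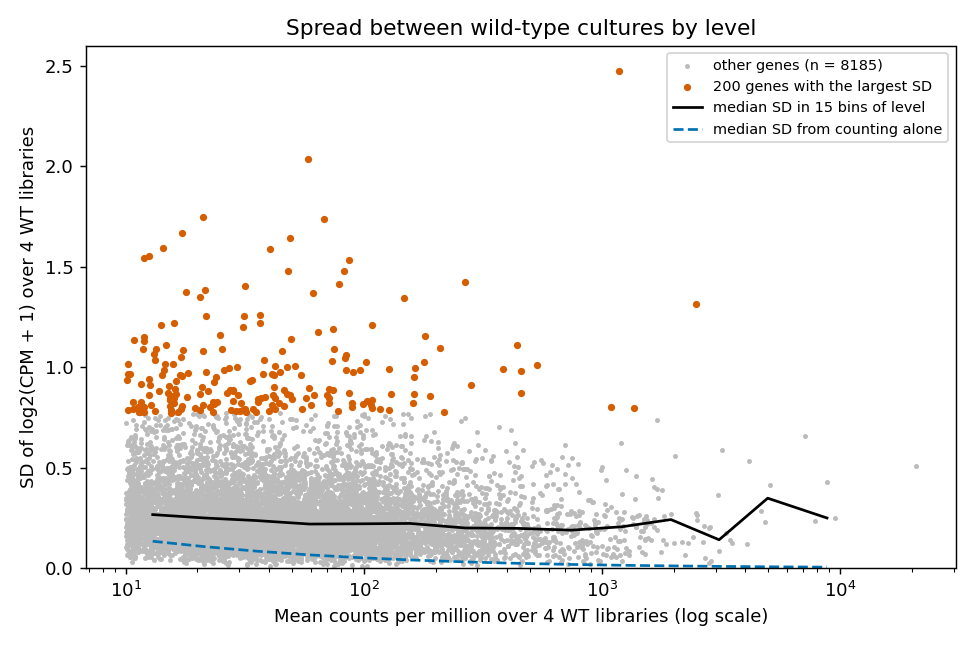
SD of log2(CPM + 1) over the 4 wild-type libraries against the mean CPM (log axis) of 8385 genes. Orange points are the 200 genes with the largest SD (0.77 or more), the black line is the median SD in 15 bins of level, and the dashed line is the median SD that counting alone would give. The orange points lie above the rest because the SD chose them. Most stand at a mean under 100 CPM, as do most of the other genes.

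The variable genes fell into a few patterns over the 4 libraries. In 71 of them (35.5%) replicate 1 was highest and replicate 4 lowest, and in another 71 (35.5%) replicate 4 was highest and replicate 1 lowest. Over all 8385 genes these patterns took 22.6% and 13%. Replicate 1 was the highest library for 74 of the variable genes (36.1% of all genes), replicate 4 for 84 (26.2% of all) and replicate 2 for 42 (26% of all). Replicate 4 was highest with replicate 2 lowest for 13 (6.5% against 11.3% of all genes). Replicate 3 was highest for none of the 200, against 11.7% of all genes. That count was 1 or 2 under some other scalings, pseudocounts and filters. Replicate 3 was lowest for 12, so that it lay between the others for 188. Of all 8385 genes it was highest for 979 and lowest for 801, so it lay between the others for most of them too. In 19 of them (9.5%, against 5.21% of all genes) 1 library stood apart from 3 close ones by Dixon's ratio, the gap to the nearest library over the whole range. The same 4 values chose the genes, so nothing is read from these shares. The choice of genes depends on which cultures are present: without replicate 1, 98 of the 200 stayed among the 200 most variable, and without replicate 4, 126 did. Library totals took the same order as the first pattern, from 8768852 in replicate 1 to 7413287 in replicate 4, and the ribosomal RNA share was highest in replicate 4; their part in these patterns was not tested.

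**Figure D3:**
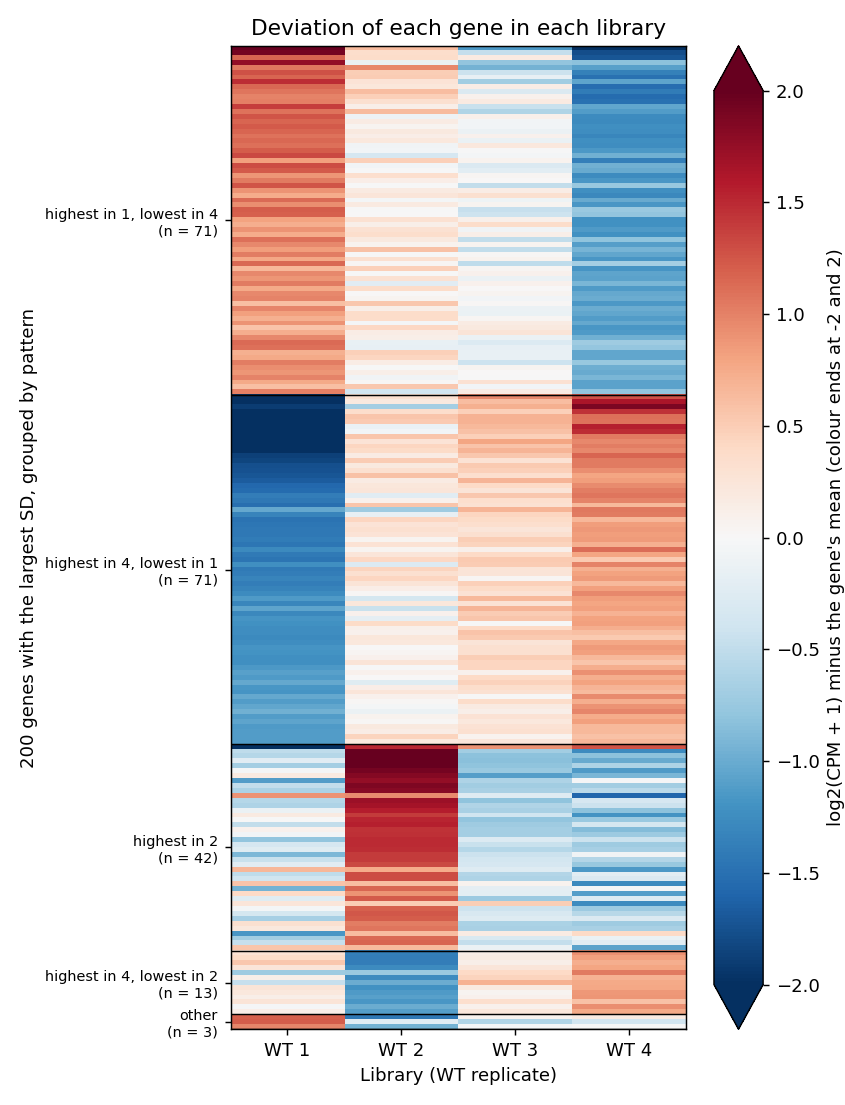
Deviation of log2(CPM + 1) from the gene's own mean in each wild-type library (colour, cut at -2 and 2) for the 200 most variable genes, 1 row per gene. Rows are grouped by which library is highest and which lowest: 71 genes were highest in replicate 1 and lowest in replicate 4, 71 the reverse, 42 highest in replicate 2, 13 highest in replicate 4 and lowest in replicate 2, and 3 highest in replicate 1 and lowest in replicate 2 or 3.

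Genes of DNA replication were the most numerous of the 30 gene lists among the variable genes. Of 36 S phase genes that reached 10 CPM, 18 (50%) were among the 200, and all 18 were highest in replicate 1 and lowest in replicate 4. The summed level of the 41 S phase genes listed was 4956, 3139, 2787 and 1503 CPM. Rrm2, the ribonucleotide reductase subunit that limits deoxynucleotide supply, stood at 143, 88.4, 80.01 and 24.6 CPM, so that replicate 4 was far below the other libraries. Mcm2, a subunit of the replicative helicase, had 52.7, 26.2, 21.1 and 9.04 CPM, and its partners Mcm3 and Mcm5 had the same order of extremes. Cyclin E2, encoded by Ccne2 and needed at the entry to S phase, was at 69.9, 30.2, 37.05 and 12.9 CPM.

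Uracil removal and chromatin copying followed the same order of extremes. Ung, the uracil-DNA glycosylase, had the largest SD of the list, 1.22 on the log2 scale, with 66.9, 38.3, 33.4 and 8.23 CPM. Uhrf1, which brings the maintenance DNA methyltransferase to newly copied DNA, stood at 94.5, 41.2, 38.5 and 16.5 CPM; here replicate 1 was the library apart, more than 2-fold above the next. Dtl, the substrate adaptor that directs licensing factors to degradation in S phase, was at 42.8, 29.6, 22.4 and 6.61 CPM. Chosen after its values were seen, Ccnd1, the cyclin that couples growth factor signals to the cell cycle and a target of M-CSF signalling, was the most abundant of these genes at 859, 451, 355 and 165 CPM.

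Genes of the later cell cycle spread less than those of S phase, but more than most genes. The 49 G2 and M phase genes had a median SD of 0.53 on the log2 scale, against 0.77 for the 36 S phase genes and 0.23 for all genes. Of the 49, 1 (2.04%) was among the 200, near the 2.39% of all genes. It was Tubb4b, at 169, 178, 106 and 54.5 CPM, which encodes a tubulin used outside mitosis too. Of the 49, 46 were lowest in replicate 4, against 38% of all genes, and 40 were highest in replicate 1, against 36.1%. Their deviations from the gene mean averaged 0.48, 0.08, 0.12 and -0.68 on the log2 scale, against 0.83, 0.13, 0.01 and -0.97 for the 36 S phase genes. The S phase count rests on replicate 4: without it 3 S phase genes were among the 200 most variable. With TMM scaling in place of plain totals it was 12.

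The promoter of Uhrf1 is shown because E2F factors are known to drive S phase genes, and it was the only S phase promoter in which a match of the letters GGCGGGAA, on either strand, lay before the gene start. Capitals mark the match, 48 bases before the start; the stretch is chr17:56303244-56303336 on the plus strand of GRCm38.p6 (RefSeq), read 5′ to 3′.
Uhrf1: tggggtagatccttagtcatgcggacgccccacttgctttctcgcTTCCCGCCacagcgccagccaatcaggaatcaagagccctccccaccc
Within the RefSeq window of 250 bases before to 50 after the gene start, these letters occurred in 2 of 18 promoters of the S phase genes among the 200 (11.1%) and in 2.19% of 32851 promoters of all genes. The cell cycle element TTTGAA, a CHR, occurred in 2 of the 18 (11.1%) and in 17.9% of all promoters. These are counts of letters in a window, and 142 of the 200 variable genes had a promoter in the table.

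Type I interferon genes were the next largest group. Of 55 that reached 10 CPM, 10 (18.2%) were among the 200. Isg15, a ubiquitin-like protein joined to other proteins during antiviral responses, was at 108, 101, 25.98 and 23.6 CPM, with replicates 1 and 2 well above replicates 3 and 4. Oas3, an oligoadenylate synthetase that senses double-stranded RNA, was at 67.8, 49.4, 20.4 and 13.9 CPM and had the same split, though wider within each pair. Usp18, the protease that removes Isg15 and dampens interferon signalling, stood at 27.3, 11.4, 5.27 and 3.91 CPM.

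Others of the group set replicate 1 apart by itself. Ifi44, an interferon-induced protein of the cytoplasm, was at 36.4, 9.11, 5.402 and 5.26 CPM, and Irf7, the transcription factor that amplifies interferon production, at 70.4, 32.2, 21.6 and 19.02 CPM. Bst2, or tetherin, which holds budding virions at the cell surface, differed from the rest: at 117, 368, 47.6 and 54.4 CPM it was highest in replicate 2. Slfn9, Phf11b and Phf11d belong to families of close copies, so their counts are uncertain; Cmpk2 completed the 10. Over all 55 genes, 46 were highest in replicate 1, against 36.1% of all genes. The 55 had mean deviations of 0.61, 0.10, -0.30 and -0.41 on the log2 scale. Without replicate 1 the number among the 200 was 5.

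The promoters of Isg15, Oas3 and Bst2 are shown for the interferon-stimulated element that ISGF3 is known to bind. Capitals mark matches of GAAANNGAA on either strand, which overlap one another here. They are given 5′ to 3′ on the minus strand of GRCm38.p6 (RefSeq), at chr4:156200831-156200941, chr5:120777675-120777779 and chr8:71537543-71537647.
Isg15: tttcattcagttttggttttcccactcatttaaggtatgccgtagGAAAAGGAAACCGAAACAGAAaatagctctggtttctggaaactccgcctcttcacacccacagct
Oas3: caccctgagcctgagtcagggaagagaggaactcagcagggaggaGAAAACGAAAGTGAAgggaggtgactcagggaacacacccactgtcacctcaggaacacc
Bst2: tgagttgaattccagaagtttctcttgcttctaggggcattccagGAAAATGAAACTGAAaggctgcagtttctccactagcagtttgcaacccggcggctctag
Isg15 held 3 overlapping matches, from 78 to 66 bases before the gene start. Oas3 and Bst2 each held 2, starting 75 and 130 bases before it. Of the 9 interferon genes among the 200 with a promoter in the table, 6 (66.7%) held the letters, against 8.56% of all promoters and 9.63% of the promoters of the 200 variable genes. The order of Bst2 over the libraries differed from that of Isg15 although both promoters hold the element.

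Ly6a had the largest SD of any gene with a symbol. This surface antigen, known as Sca-1 and inducible by interferon, stood at 170.5, 44.4, 12.2 and 6.07 CPM. As a ratio of CPM + 1, replicate 1 was 24.3 times replicate 4, with the other libraries spaced between. Id1, an inhibitor of basic helix-loop-helix factors and a target of BMP signalling, had the same order of extremes at 31.02, 9.87, 5.15 and 1.48 CPM. Bmp2, a BMP ligand, was at 3.31, 20.2, 29.2 and 33.3 CPM, lowest in replicate 1. Iigp1, an immunity-related GTPase with close copies whose counts are therefore uncertain, was at 30.96, 15.9, 9.57 and 7.49 CPM and was the 1 of 13 GTPases of its list among the 200.

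The chemokine genes Ccl2 and Ccl7 and the urokinase genes Plau and Plaur also stood highest in replicate 1. Ccl2 and Ccl7, neighbouring chemokine genes whose products recruit monocytes through Ccr2, were at 339, 132, 112 and 69.9 and 97.7, 56.5, 29.2 and 14.97 CPM. They were 2 of 11 chemokines that reached the level. Of the 11, 7 were highest in replicate 1, 2 in replicate 2 and 2 in replicate 4, against 36.1%, 26% and 26.2% of all genes. Plau, the protease urokinase, was at 142, 59.9, 43.7 and 35.9 CPM and its receptor Plaur at 73.6, 39.3, 26.2 and 20.6 CPM. For all 4 genes replicate 4 was lowest. Thbs1, thrombospondin, the third of the 17 matrix and protease genes among the 200, was at 7.07, 12.9, 21.6 and 27.7 CPM, with the opposite extremes.

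Of 30 genes in a list of ATF4 targets and the unfolded protein response that reached the level, 3 were among the 200. Slc7a5, the carrier of large neutral amino acids, stood at 47.2, 48.9, 20.6 and 7.55 CPM, level in replicates 1 and 2 and lowest in replicate 4. Slc7a1, the arginine carrier, was at 80.7, 39.9, 34.2 and 14.03 CPM, and Mthfd2, a mitochondrial enzyme of the folate cycle, at 147, 56.9, 65.6 and 24.96 CPM, each clearly highest in replicate 1. ATF4 is a transcription factor of the response to amino acid shortage and other stress. The whole list of 30 averaged deviations of 0.36, 0.10, -0.08 and -0.39 on the log2 scale.

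Beside these groups, neutrophil transcripts took the same extremes at a low level. S100a8 and S100a9, which form calprotectin, were at 89.5, 42.6, 42.7 and 24.95 and 50.6, 29.8, 25.3 and 13.9 CPM, with SDs of 0.74 and 0.74 on the log2 scale, just under the limit. The monocyte antigen gene Ly6c2 was at 8.95, 3.87, 1.16 and 0.489 CPM, under the level filter, and the chemokine receptor gene Cx3cr1 at 463, 222, 244 and 130.3 CPM. The defining granule genes Mpo and Elane stayed under 1 CPM in every library. The part of other cells or of less mature cells in these patterns was not tested.

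Selenop, Apoe and Pltp were among the 71 variable genes with the reverse order, lowest in replicate 1 and highest in replicate 4. Selenop, the secreted carrier of selenium, had the highest mean of the 200 genes and stood at 532, 2188, 2847 and 4362 CPM. Its CPM + 1 was 8.18 times higher in replicate 4 than in replicate 1. Part of its tags cannot be told apart from Ccdc152 on the opposite strand if counting ignored strand; that gene stood far lower, at 2.39, 11.1, 16.2 and 18.2 CPM. Apoe, the apolipoprotein that macrophages secrete with cholesterol, was at 474, 950.4, 1107 and 1819 CPM. Pltp, which moves phospholipids between lipoproteins, was at 99.2, 289, 304 and 431 CPM, and it overlaps Ctsa on the other strand.

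Abca1, which loads cholesterol onto lipid-poor apolipoprotein, separated replicate 1 from the rest, at 59.4, 171, 210.3 and 210.4 CPM. Apoc2, a cofactor of lipoprotein lipase, was low throughout at 3.73, 14.9, 11.2 and 20.3 CPM. Scd2, a fatty acid desaturase, behaved otherwise: at 38.9, 46.9, 46.2 and 13.1 CPM it was lowest in replicate 4 and level elsewhere. These 5 were the LXR and lipid handling genes among the 200, of 30 that reached the level. The list as a whole took no common direction, since its mean deviations lay between -0.12 and 0.09 on the log2 scale. Without replicate 1, 1 of its genes was among the 200, and without replicate 4, 2 were.

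Scavenger and alternative activation genes had 5 of 13 among the 200. F13a1, the coagulation factor subunit made by monocytes and macrophages, was at 7.87, 20.6, 24.8 and 40.2 CPM, and Clec10a, a galactose-type lectin, at 35.5, 79.2, 108 and 133 CPM. Cbr2, a carbonyl reductase, stood at 5.13, 21.3, 23.2 and 23.3 CPM, with replicates 2, 3 and 4 nearly equal and 4.41 times replicate 1 on average. Gas6, the bridging ligand of the receptors Mertk and Axl, was instead highest in replicate 2, at 204, 889, 350.2 and 387 CPM. Its receptor gene Mertk stood at 30.7, 71.5, 88.5 and 91.2 CPM, with replicate 1 lowest. The 13 genes averaged deviations of -0.57, 0.19, 0.14 and 0.24 on the log2 scale, and without replicate 1 only 1 of them was among the 200.

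Iron handling genes had 1 member with this order. Slc40a1, ferroportin, the exporter of cellular iron, was at 57.9, 204, 232 and 338 CPM. Its CPM + 1 was 5.75 times higher in replicate 4 than in replicate 1. The cathepsin gene Ctsf had the same extremes, at 3.99, 7.61, 16.2 and 18.5 CPM. The ferritin genes varied far less, with SDs of 0.25 for Fth1 and 0.13 for Ftl1 on the log2 scale. Trp53inp1, a p53 target that takes part in autophagy, stood at 22.5, 52.3, 60.8 and 84.1 CPM.

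Replicate 1 was the library farthest from the others and lower in 71 of the 200 (35.5%, against 16.8% of all genes). Gpr34, a receptor for lysophosphatidylserine, was at 1.597, 17.97, 28.6 and 36.02 CPM, nearly silent in replicate 1. Adgre4, an adhesion receptor of the F4/80 family, was at 1.03, 13.4, 15.3 and 20.2 CPM, and Adam22, a metalloprotease-like protein without protease activity, at 1.26, 12.9, 14.1 and 28.9 CPM. Samd4, of the Smaug family of RNA-binding proteins, stood at 7.53, 51.9, 70.1 and 142 CPM. Its extremes differed by 16.8 times as a ratio of CPM + 1. Dbp, a transcription factor whose level follows the circadian clock, was at 7.54, 42.1, 36.3 and 61.2 CPM; sampling times were not used here. Gab1, a docking protein of receptor signalling, was at 3.08, 14.7, 18.8 and 27.2 CPM.

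Ighm, the heavy chain of IgM and a lymphoid marker, stood at 4.91, 43.7, 47.9 and 64.2 CPM, an order of extremes shared with the macrophage genes above. Cd79a, a component of the B cell receptor, stayed under 1 CPM in every library. Igkc, the light chain gene, was low and highest in replicate 1, at 3.65, 0.749, 0.9004 and 2.02 CPM. Kdr, an endothelial receptor of VEGF, had the opposite extremes at 33.9, 13.6, 9.39 and 7.69 CPM, while Cdh5 and Tek stayed under 1 CPM. Whether these tags come from other cells was not tested.

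A non-coding RNA without a poly(A) tail and genes without an established name also belonged here. Rn7sk, the small nuclear RNA that holds an elongation factor inactive, stood at 13.97, 55.5, 96.5 and 181 CPM. The predicted genes Gm54754 and Gm55636 were at 14.2, 57.5, 90.7 and 168 and 7.62, 19.02, 51.6 and 117 CPM. ENSMUSG00000120878, a gene the files leave without a symbol, had the largest SD of all, 2.47 on the log2 scale, at 49.4, 1868, 1218 and 1564 CPM. As a ratio of CPM + 1, replicate 1 stood 37.1 times below replicate 2. In CPM the other 3 libraries differed from each other by 1.53 times at most. It was one of the 4 variable genes at 1000 CPM or more, with Selenop, Laptm5 and Apoe.

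**Figure D4:**
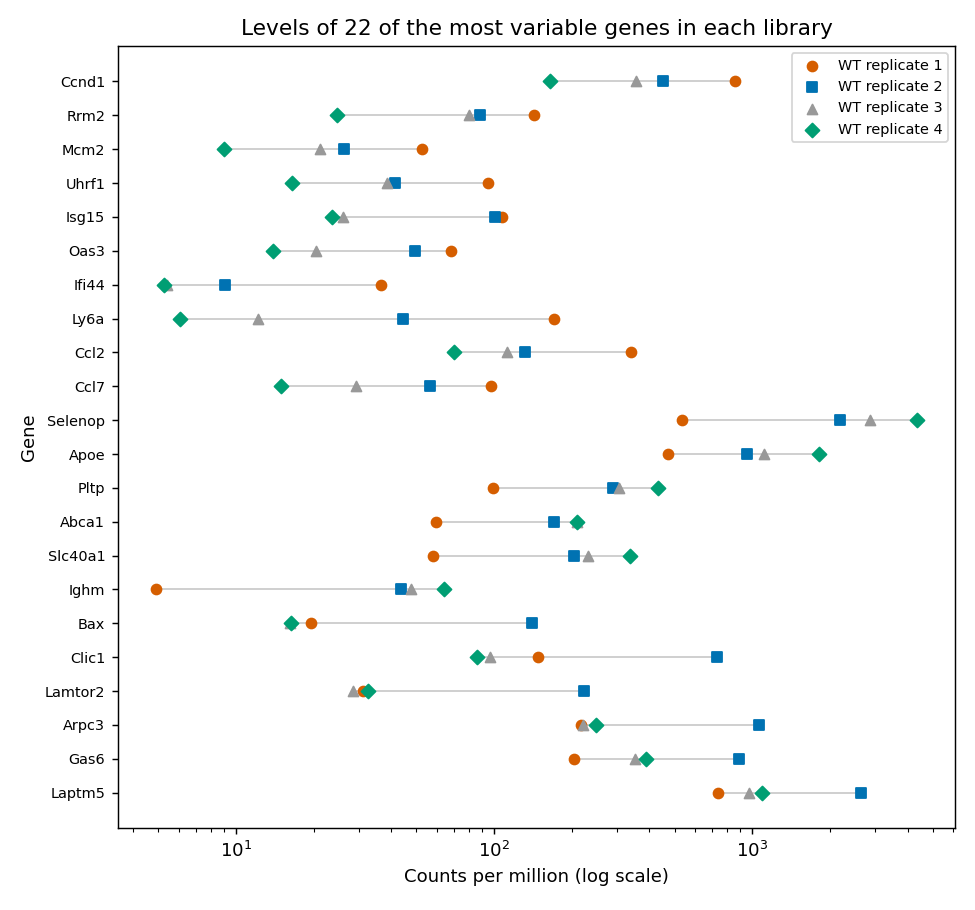
CPM (log axis) of 22 of the 200 most variable genes in the 4 wild-type libraries, 1 point per library, grouped by pattern; grey lines join the lowest and highest library. From Ccnd1 to Ccl7 replicate 1 is highest and replicate 4 lowest, from Selenop to Ighm the reverse, and from Bax to Laptm5 replicate 2 is highest, as with Bax at 141 CPM against 16.2 to 19.5 CPM elsewhere.

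Another set was high in replicate 2. Replicate 2 was farthest from the other libraries and higher in 34 of the 200 (17%, against 13.7% of all genes). Clic1, a chloride channel protein of the cytosol, was at 148, 732, 96.1 and 85.7 CPM. Bax, the pore-forming effector of mitochondrial apoptosis, was at 19.5, 141, 16.2 and 16.3 CPM, 8.10 times the mean of the other 3, which lay close together. Chosen after its values were seen, Bak1, the related effector, was at 44.9, 82.7, 24.4 and 24.4 CPM.

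Named genes of this set included proteins of endosomes and lysosomes. Lamtor2, a subunit of the Ragulator complex that anchors mTORC1 at the lysosome, stood at 31.1, 223, 28.4 and 32.5 CPM. Chmp1a, of the ESCRT-III membrane scission machinery, was at 50.5, 279, 49.8 and 54.1 CPM. Replicate 2 was 7.25 and 5.43 times the mean of the other 3 libraries, which differed from each other by 1.14 and 1.09 times at most. Laptm5, a lysosomal membrane protein of blood cells and the only macrophage identity gene among the 200, was at 738, 2643, 974 and 1094 CPM. Mcoln1, the lysosomal cation channel TRPML1, was at 5.82, 23.3, 6.17 and 5.13 CPM, close to the level filter.

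Arpc3 and Tkt were also highest in replicate 2. Arpc3, a subunit of the actin-branching complex, was at 218, 1066, 220.5 and 249 CPM, whereas Actb, actin itself, was at 6048, 4186, 4714 and 4471 CPM. Arpc3 was the 1 gene of its list among the 200. Of the 35 actin cytoskeleton genes, 27 were highest in replicate 1 and 8 in replicate 2, against 36.1% and 26% of all genes. Tkt, transketolase of the pentose phosphate pathway, was at 140.0, 402, 89.7 and 87.01 CPM. Arl6ip5, a membrane protein of the endoplasmic reticulum, Metrn, a secreted factor, Rrp7a, a ribosome biogenesis factor, and Kmt5c, a histone H4 methyltransferase, stood at 83.4, 54.8, 54.5 and 54.9 CPM in replicate 2. In the other libraries they stayed at or under 15.4, 13.5, 6.12 and 15.3 CPM.

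Base composition was read from the annotation. Over the last 300 bases of the GENCODE M21 transcript, where 3′ tags arise, the 34 genes had a median GC content of 48.5% (41.3% over all genes), and a median transcript length of 2346 bases (3116 over all genes). All genes in which replicate 2 was farthest and higher, 1148 in number, had a median of 44% and 2645 bases. Among the 200, a similar median GC content was found for the 13 genes in which replicate 2 was farthest and lower (48%) and the 3 in which replicate 4 was farthest and higher (49.7%); the other patterns had medians of 38.8 to 40.7%. The build of that annotation differs from that of the counts, and the part of base composition in the pattern was not tested.

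The opposite case, replicate 2 farthest and lower, held 13 of the 200 (6.5%, against 14.1% of all genes), of which 9 were pseudogenes in GENCODE M21, against 152 of all 1181 genes with this pattern. Their median transcript length was 661 bases, and counts of such copies are uncertain because tags can fit their parent genes as well. Snord13, a small nucleolar RNA that guides acetylation of ribosomal RNA, was at 86.9, 13.2, 39.5 and 42.2 CPM, and 2900060B14Rik and Gm15725 were at 16.4, 4.08, 14.2 and 22.4 and 22.1, 5.14, 16.3 and 25.5 CPM. Ribosomal RNA took the lowest share of counts in the same library, 1.83%; its part was not tested.

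Uty, a Y-linked histone demethylase gene, was among these 13, at 7.64, 4.99, 18.3 and 19.02 CPM. The Y-linked helicase gene Ddx3y stood at 48.5, 27.96, 68.8 and 94.97 CPM and Xist, which silences an X chromosome in females, at 86.2, 119.7, 101 and 55.3 CPM. Both Xist and the Y-linked genes were counted in every library, each of which pooled several mice.

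Replicate 4 was farthest and higher in 3 of the 200 (1.5%, against 9.95% of all genes). Rarg, a retinoic acid receptor, was at 7.53, 7.36, 17.4 and 27.7 CPM, and Abca9, a transporter of the ABC family, at 3.65, 4.74, 14.02 and 18.5 CPM. Tcn2, transcobalamin, which carries vitamin B12, was at 18.9, 34.7, 40.9 and 75.00 CPM. Replicate 4 was farthest and lower in 53 (26.5%, against 19.5%), mostly the replication genes already described.

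Several lists held none of the 200. None of 23 inflammatory and NF-kB genes, 28 glycolysis and hypoxia genes, 27 immediate early and stress genes, 25 cholesterol synthesis and uptake genes or 14 mitochondrially encoded transcripts that reached the level was among them, against 2.39% of all genes; for lists this short, a count of 0 is near that share. Il1rn, the decoy ligand of the interleukin-1 receptor, came near, at 455, 239, 197 and 134 CPM with an SD of 0.73 on the log2 scale. Nfkbia, the NF-kB inhibitor, was steadier at 336, 235, 287 and 292 CPM. Idi1, an isomerase of sterol synthesis, was at 251, 237, 229.7 and 112 CPM: replicate 4 was more than 2-fold below each of the others, and 19 of 25 genes of its list were lowest there, against 38% of all genes.

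Mean deviations of these lists differed in size. Cholesterol synthesis and uptake genes ranged from -0.45 in replicate 4 to 0.21 in replicate 2 on the log2 scale. Glycolysis genes had mean deviations from -0.15 to 0.22 on the log2 scale, with replicate 1 highest for 20 of 28 (36.1% of all genes); Ldha, lactate dehydrogenase, was at 947, 566, 577 and 519.6 CPM. Lysosomal hydrolases had 1 of 51 genes among the 200 and lysosomal membrane proteins 2 of 45, and their median SDs of 0.23 and 0.21 were near or under the 0.23 of all genes. Replicate 1 was lowest for 31 of the 51 hydrolases and 27 of the 45 membrane proteins, against 27.1% of all genes. The 30 macrophage identity genes had a median SD of 0.20.

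**Figure D5:**
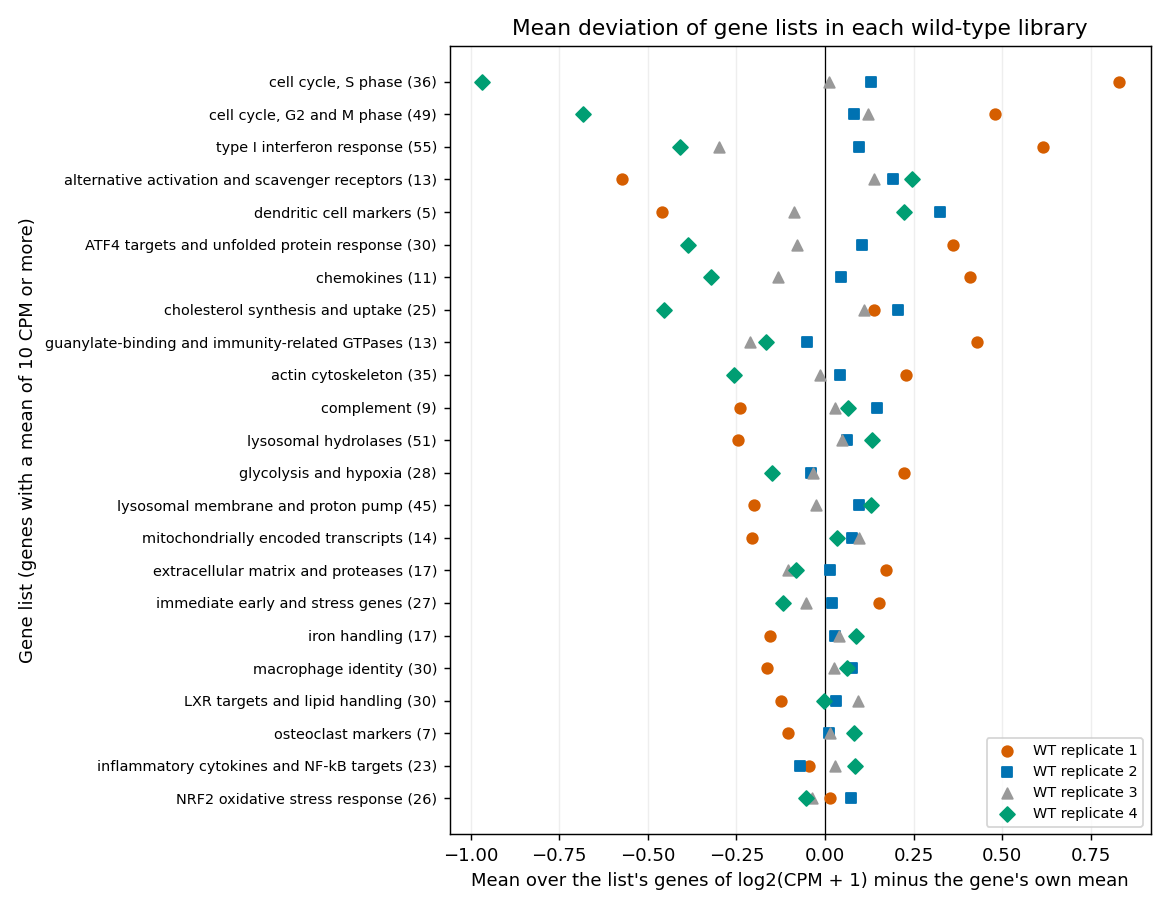
Mean over the genes of a list of log2(CPM + 1) minus the gene's own mean, for each wild-type library and for each of 23 lists with at least 5 genes at a mean of 10 CPM or more (number of genes in brackets). S phase genes spread widest, from -0.97 in replicate 4 to 0.83 in replicate 1, and interferon genes from -0.41 to 0.61; alternative activation genes are lowest in replicate 1, at -0.57.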

How the data were processed

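RNA of bone-marrow-derived macrophages was read as 3′ tags with unique molecular identifiers, per the labels' protocols. The authors deposited estimated counts per gene; the submitters' processing notes name Salmon, with no version, and the build GRCm39. Whether counting used strand is not given in the sources. Of the non-zero estimated counts in the WT libraries, 36.7% were not whole (tolerance 1e-06). The authors' log2 CPM, deposited beside the counts with a prior count added, served only as an alternative.

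WT libraries were identified by their titles and mapped to columns by the label descriptions. CPM used plain library totals (7413287 to 8768852), and intervals of counting error are Poisson, by the delta method on log2(CPM + 1). The procedure was checked on simulated data in which the planted genes had a spread above the limit found here. That check does not tell how reliable the choice is for genes near the limit. No library repeated another: over genes with a summed count of at least 10, chi-square divided by its degrees of freedom was 9.93 to 45.2 for pairs. Python 3.11.15, pandas 2.3.3, and edgeR 4.0.16 and DESeq2 1.42.0 in R 4.3.3 gave CPM, the coefficient of variation (intercept only) and the TMM and median-of-ratios factors. GENCODE M21 (GRCm38), matched on gene ID, gave biotype, transcript length, end GC and overlaps; RefSeq gave promoters (GRCm38.p6). No group was compared, so no test was made.

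The text names the 25 most abundant genes and the 30 with the largest SD. From each list it names up to 5 variable genes, or its 2 most abundant genes where it had none. It also names 5 genes on each side of the limit, 3 genes per library apart and direction, the 10 steadiest genes and cell type markers. Grn and sex-linked genes were added to these. Ccnd1 and Bak1 are said to be chosen after their values were seen. Mcm3, Mcm5, Irf7, Slfn9, Phf11b, Phf11d and Cmpk2 also lie outside this rule and were named with their values known. Some genes that this rule names are not reported here. The variable genes, the 30 gene lists and this rule were chosen with earlier results of these data known. Alternatives changed the scaling, pseudocount, level filter, measure of spread, values used or the set of libraries; leaving out ribosomal RNA genes together with ENSMUSG00000120878 was added after seeing the data.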

Additional observations from a re-analysis of the deposited data

Results flagged for a closer look

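Values are flagged where the highest or lowest of the 4 libraries lay far from the other 3, as a gap to its nearest neighbour over the whole range on the log2 scale (Dixon's ratio) above its critical value for 4 samples. Chance flags about 1 in 20 groups of 4, and 437 of 8385 genes (5.21%) were flagged, so the list below may hold such cases. Of 170 named genes at the level filter, 20 were flagged, along with 2 list means. Many of the named genes were chosen for a large SD or for a library apart. Their flagged share is therefore raised by the choice, and nothing is read from it.

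Replicate 2 was the library apart, and high, for Bax with a ratio of 0.917, Lamtor2 with 0.936, Arl6ip5 with 0.92, Chmp1a with 0.952, Mcoln1 with 0.885 and Arpc3 with 0.917. These 6 genes encode an apoptosis effector, proteins of lysosomes, endosomes and the endoplasmic reticulum, and an actin-branching subunit.

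Replicate 1 was apart and low for ENSMUSG00000120878 (0.882), Ighm (0.843), Adgre4 (0.833), Cbr2 (0.938), Abca1 (0.836), Lyz2 (0.833) and Etl4 (0.855), and for the mean of the alternative activation and scavenger list (0.87). The same library was apart and high for Spp1, with a ratio of 0.938, and for Cd14, with 0.856.

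Replicate 4 was apart and low for Idi1 (0.889), Scd2 (0.85) and Gm20667 (0.841), and for the mean of the cholesterol synthesis and uptake list (0.854). Replicate 3 was apart and low for Rpl15 (0.838) and Clec4d (0.841), which are among the 10 steadiest genes, so their whole range was small.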

How the results depend on the processing

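Of 182 values recomputed under an alternative, 159 were taken as the same as the reported value and 23 as moved. For a count or an SD the limit was 1.5 times the reported value, either way. For the share of counts in the 10 most abundant genes, the limit was the SD over the libraries, 1.21 percentage points. With no level filter the number of genes was 56980, and 118 of the 200 variable genes were still chosen. The new 200 then held 11 S phase genes (18 as reported), 2 LXR and lipid genes (5) and 0 matrix and protease genes (3); with a minimum of 5 CPM the matrix count was 1. ATF4 targets among the 200 numbered 5 with a pseudocount of 5 and 5 with a minimum of 20 CPM (3 as reported). Genes highest in replicate 3 numbered 0 as reported, 1 with median-of-ratios factors, and 2 with TMM factors, a pseudocount of 0.25, no level filter or the deposited log2 CPM. The 10 most abundant genes by mean held 7.69% of counts on average, and in replicate 4 its own 10 held 9.43%.

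Leaving out 1 library at a time, 98 (without replicate 1) to 188 of the 200 genes were chosen again. The same runs gave 3 (without replicate 4) to 21 S phase genes, 5 (without replicate 1) to 13 interferon genes, 1 to 5 LXR and lipid genes, 1 (without replicate 1) to 5 alternative activation genes and 0 (without replicate 1) to 3 matrix and protease genes. Leaving out ribosomal RNA genes and ENSMUSG00000120878 together, an alternative added after seeing the data, kept 192 of the 200, with 16 S phase genes. The causes were not tested. No paired analysis was possible because only the WT libraries were used and no groups were compared. With 4 libraries, an SD is itself imprecise, and the order of genes near the limit carries little weight. Depth limits genes near 10 CPM most, where counting error is largest.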
